A study of Mus musculus with 4 samples.

Results

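The 40 mitosis and G2/M genes are a list of cell cycle genes chosen by symbol, and all 40 were found among the 23946 gene symbols of each library. RNA was profiled by bulk RNA-seq in CD51+;CD200+ cells, the skeletal stem/progenitor population sorted by FACS, with 1 library each from 3 cranial sutures, the sagittal (SAG), the coronal (COR), and the posterior frontal (PF), and from the growth plate (GP) of the tibia. The donors of all 4 libraries were wild-type CD-1 mice at postnatal day 3, and each library held cells of pooled animals, so that spread between animals cannot be seen. Of the sutures only PF normally closes by bone while the mouse is young, and the growth plate is a long bone site of skeletal stem cells. The sort removed cells with blood, endothelial, or later stromal surface markers (among them CD45, Ter119, and Tie2).

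A cell enters mitosis when cyclin B with CDK1 becomes active at the end of G2. The chromosomes then condense, their kinetochores attach to spindle microtubules, and the spindle checkpoint holds back the anaphase-promoting complex (APC/C) until attachment is complete. The APC/C next marks securin and cyclin B for destruction, the sister chromatids part, and cytokinesis divides the cell. Most of the genes involved are transcribed late in the cell cycle and are low in resting cells. In bulk RNA, a smaller share of dividing cells and less of these transcripts per dividing cell cannot be told apart.

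Values are FPKM, the fragments per kilobase of transcript, scaled to library size, that the authors deposited. Differences were taken between values of log2(FPKM + 1), so that those of genes near 0 come out too small, and a gene had to reach 1 FPKM in at least 1 of both libraries compared. A difference of 3-fold, 1.58 on that scale, was counted. With 1 library per tissue there was no replicate spread and no test, so every difference below is between libraries. FPKM carries no depth of its own. The value of a single fragment, read from steps in FPKM times transcript length, put the PF library at 43.6% of the SAG depth, COR at 88.1%, and GP at 83.0%. The markers the sort kept were present in all 4 libraries: *Itgav* (CD51) was at 6.20 to 15.0 FPKM and *Cd200* at 23.5 to 62.6 FPKM. Of the markers sorted against, some were highest in PF. *Enpep* (6C3) was at 7.05, 2.74, 3.74, and 1.39 FPKM in PF, SAG, COR, and GP. *Eng* (CD105) was at 1.7, 0.76, 1.07, and 0.679 FPKM, and *Ptprc* (CD45) at 0.568, 0.00475, 0.00523, and 0.0574 FPKM. *Tek* (Tie2) was highest in SAG, at 0.627 FPKM, and *Thy1* in GP, at 0.435 FPKM. Of the skeletal markers, *Col1a1* and *Sparc* are listed at 0 in COR.

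Every one of the 40 genes had its lowest FPKM in PF-CD51+;CD200+ cells. Relative to *Gapdh*, which was itself lowest in PF at 281 FPKM against 335 to 407, the difference turned positive for 2 genes against SAG, 1 against COR, and 4 against GP, and that scaling put the median difference of all genes at 0.49, 0.28, and 0.44. Over the 13998 genes that reached 1 FPKM in any library, PF was lowest for 35.8%. The median level of the 40 genes was 3.0 FPKM in PF and 12.2, 9.45, and 10.5 FPKM in SAG, COR, and GP, and their summed FPKM was 259.7, 723, 777, and 687 in the same order. The sum was 0.0471% of the library total in PF and 0.162%, 0.158%, and 0.133% in SAG, COR, and GP. In PF 29 of the 40 genes reached 1 FPKM, and in each other library all 40 did. At 5 FPKM or more were 17 genes in PF and 32, 32, and 30 in SAG, COR, and GP. The order of the genes by level was nonetheless similar in all libraries: Spearman's rho across the 40 genes was 0.84 between PF and SAG, 0.86 between PF and COR, 0.87 between PF and GP, and 0.97 between SAG and GP, as a description across genes that share these libraries.

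**Figure D1:**
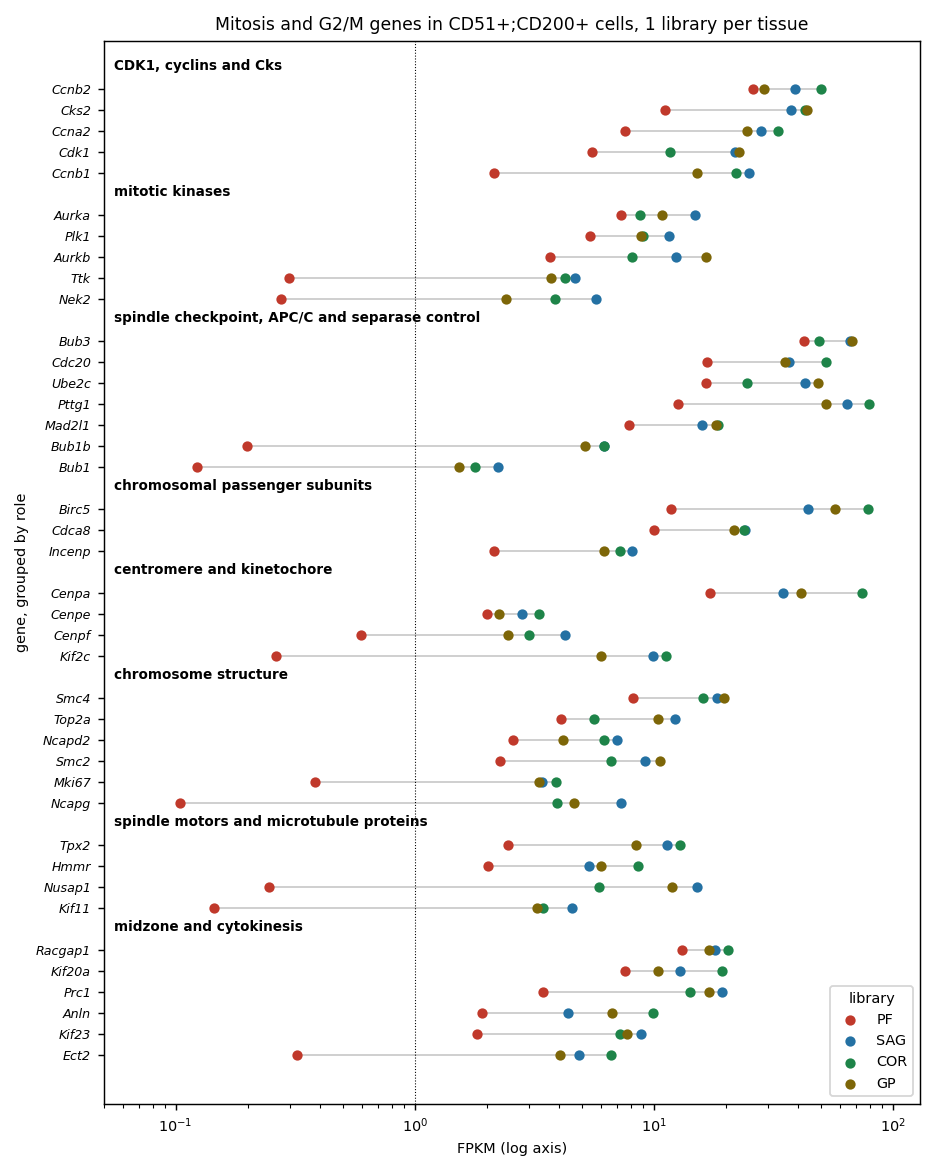
FPKM of each of the 40 genes (log axis) in the PF, SAG, COR, and GP libraries, 1 point per library, grouped by role; the grey line joins the lowest and highest library and the dotted line marks 1 FPKM. The PF point is the leftmost in every row, and 11 PF points lie below 1 FPKM.

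Between PF and SAG, 20 of the 40 genes were at least 3-fold lower in PF and 0 were higher. Of all 13490 genes compared, 9.04% were 3-fold lower in PF and 6.64% higher. Between PF and COR, 20 of 40 were lower and 0 higher, against 4.87% lower and 6.81% higher of 12853 genes. Between PF and GP, 17 of 40 were lower and 0 higher, against 6.24% and 5.72% of 13101 genes. The median difference of the 40 genes was -1.58 for PF minus SAG, -1.57 for PF minus COR, and -1.43 for PF minus GP, and over all genes compared it was 0.025, 0.049, and 0.027. These comparisons share the PF library and are not independent of each other. Relative to *Gapdh* the counts were 11, 17, and 10 of 40 for SAG, COR, and GP, against 6.33%, 4.15%, and 4.47% of all genes. Among genes at 1 FPKM or more in all 4 libraries, which leaves 29 of the 40, they were 10, 11, and 9, against 3.79%, 2.41%, and 2.98%. At 2-fold, 30, 29, and 32 of the 40 genes were lower in PF than in SAG, COR, and GP, compared with 18.5%, 12.8%, and 14.4% of all genes. The 3-fold line was passed against all 3 libraries by 13 genes, against at least 1 by 25, and against none by 15, where the shares of all 13998 genes were 2.09%, 12.5%, and 87.5%.

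**Figure D2:**
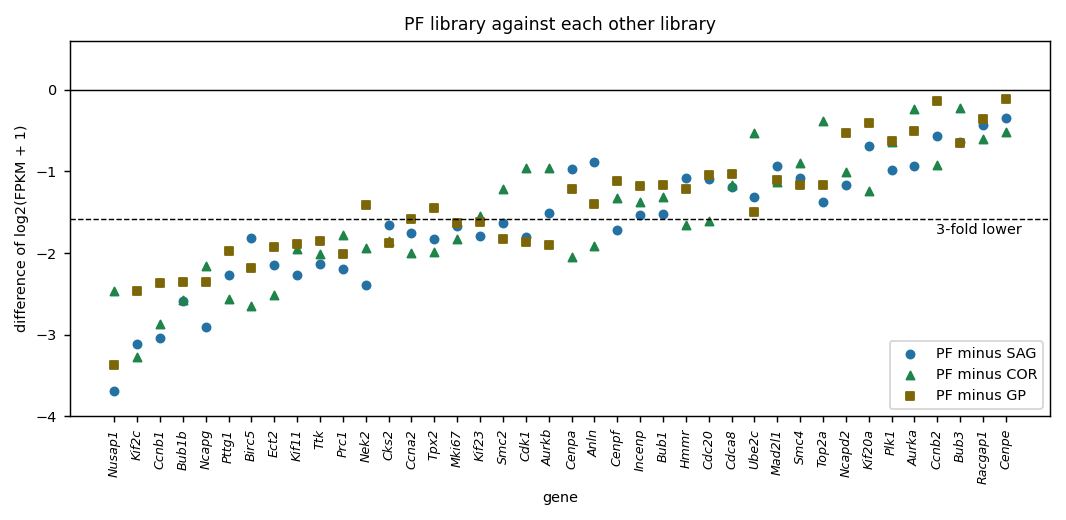
Difference of log2(FPKM + 1) between PF and each other library for the 40 genes, ordered by the mean difference; the dashed line marks 3-fold lower in PF. All points lie below 0, from *Nusap1* at the left, at -3.70 for PF minus SAG, to *Cenpe* at the right, at -0.34.

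The cyclins and CDK1 drive entry into mitosis. *Ccnb1*, which encodes cyclin B1 (mm9 chromosome 13, 101548605 to 101556525), was at 2.14 FPKM in PF and at 24.9, 22, and 15.2 FPKM in SAG, COR, and GP. *Ccnb2*, the other main mitotic B cyclin, was at 25.9 FPKM in PF, with SAG, COR, and GP at 39.0, 50.1, and 28.7. The B cyclins therefore differed in how far PF stood apart: PF minus SAG was -3.05 for *Ccnb1* and -0.57 for *Ccnb2*, and *Ccnb2* was close to GP at -0.14. *Ccna2*, which encodes cyclin A2 and acts from S phase to early mitosis, was at 7.54, 27.9, 33.0, and 24.6 FPKM. *Cdk1*, the kinase subunit, was at 5.50, 21.8, 11.7, and 22.6 FPKM, so that COR lay between PF and the other libraries. *Cks2*, a small CDK-binding protein, was at 11.1, 37.3, 42.6, and 43.6 FPKM. Of these 5 genes, 4 were 3-fold lower in PF than in SAG, 3 than in COR, and 3 than in GP, beside the 9.04%, 4.87%, and 6.24% of all genes.

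Among the mitotic kinases, *Aurka*, which builds the spindle poles, was at 7.29 FPKM in PF and at 14.8, 8.75, and 10.8 FPKM in SAG, COR, and GP. *Plk1*, polo-like kinase 1, was at 5.39, 11.6, 8.99, and 8.86 FPKM. *Aurkb*, the kinase of the chromosomal passenger complex, was at 3.68, 12.3, 8.09, and 16.5 FPKM. All 3 of these kinases stayed above 1 FPKM in PF, and with the pseudocount of 1 none of them was 3-fold lower there than in SAG or COR. *Aurkb* was 3-fold lower than in GP, at -1.90, and with a pseudocount of 0.1 also than in SAG, at -1.71 in place of -1.51. *Ttk*, the checkpoint kinase Mps1, was at 0.298, 4.68, 4.25, and 3.70 FPKM. *Nek2*, a kinase of centrosome separation, was at 0.275, 5.71, 3.87, and 2.40 FPKM. Within this group, *Ttk* and *Nek2* were below 1 FPKM in PF.

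The checkpoint and APC/C genes showed the widest range in PF. *Bub1b*, which encodes the checkpoint protein BubR1 (mm9 chromosome 2, 118423947 to 118467328), was at 0.199 FPKM in PF and at 6.19, 6.15, and 5.14 FPKM in SAG, COR, and GP. *Bub1*, a checkpoint kinase, was at 0.123, 2.22, 1.78, and 1.53 FPKM, the lowest of the 40 genes in SAG, COR, and GP. *Bub3*, the partner of both, was at 42.2, 66.0, 49.2, and 67.1 FPKM, and was the highest of the 40 in PF. *Bub3* is thus far above its partners in every library, and PF stood nearer to the others for it, at -0.64, -0.22, and -0.66 against SAG, COR, and GP. *Mad2l1*, the inhibitor of Cdc20, was at 7.88, 15.9, 18.5, and 18.2 FPKM. *Cdc20*, the mitotic activator of the APC/C, was at 16.6, 36.7, 52.5, and 35.2 FPKM. *Ube2c*, the ubiquitin-conjugating enzyme that works with the APC/C, was at 16.5, 42.6, 24.4, and 48.5 FPKM. *Pttg1*, which encodes securin (chromosome 11, 43233752 to 43239753), was at 12.6, 64.2, 79.5, and 52.5 FPKM. Securin was the gene of this group farthest below in PF among those over 1 FPKM, at -2.26 against SAG and -2.57 against COR.

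The chromosomal passenger complex corrects faulty attachments and later acts at the midzone. Its subunit survivin, *Birc5* (chromosome 11, 117710565 to 117717069), was at 11.8 FPKM in PF and at 44.0, 78.8, and 57.3 FPKM in SAG, COR, and GP. *Incenp*, the scaffold, was at 2.15, 8.1, 7.19, and 6.17 FPKM. *Cdca8*, which encodes borealin, was at 10, 24.1, 23.7, and 21.6 FPKM. All 3 were over 2-fold lower in PF than in each other library, and *Birc5* passed 3-fold in each comparison. *Incenp* lay near that line, at -1.53 against SAG and -1.38 against COR, and passed it there with a pseudocount of 0.1, at -1.86 and -1.69.

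At centromeres and kinetochores, *Cenpa*, the centromeric histone H3 variant, was at 17.1 FPKM in PF and at 34.5, 73.8, and 41.1 FPKM in SAG, COR, and GP. *Kif2c*, the microtubule depolymerase MCAK (chromosome 4, 116832244 to 116855244), was at 0.262, 9.94, 11.2, and 5.98 FPKM. *Cenpe*, a kinetochore motor, was at 2.0, 2.8, 3.30, and 2.24 FPKM, and *Cenpf*, a large kinetochore protein, at 0.593, 4.25, 3.00, and 2.46 FPKM. The group spans a wide range: *Kif2c* was the gene farthest below in PF against COR, at -3.27, and *Cenpe* the one nearest to GP, at -0.11.

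Of the chromosome structure genes, *Top2a*, DNA topoisomerase II alpha, was at 4.07 FPKM in PF and at 12.2, 5.60, and 10.4 FPKM in SAG, COR, and GP. *Smc2*, a condensin ATPase, was at 2.27, 9.15, 6.59, and 10.6 FPKM, and its partner *Smc4* at 8.17, 18.4, 16.1, and 19.6 FPKM. The condensin I subunit *Ncapd2* was at 2.57, 7.03, 6.18, and 4.17 FPKM. *Ncapg* (chromosome 5, 46061161 to 46091783), its neighbour in the same complex, was at 0.104, 7.31, 3.92, and 4.63 FPKM, the lowest PF value of the 40. Subunits of 1 complex thus stood apart in PF to unlike degrees, at -2.91 for *Ncapg* and -1.17 for *Ncapd2* against SAG. *Mki67*, the proliferation antigen Ki-67 that coats mitotic chromosomes, was at 0.384, 3.40, 3.91, and 3.29 FPKM.

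Of the spindle proteins, *Nusap1*, a microtubule bundling protein (chromosome 2, 119444034 to 119476980), was at 0.246 FPKM in PF and at 15.1, 5.87, and 11.9 FPKM in SAG, COR, and GP. *Kif11*, the bipolar spindle motor Eg5, was at 0.145, 4.54, 3.42, and 3.25 FPKM. *Tpx2*, an activator of Aurora A, was at 2.46, 11.3, 12.8, and 8.4 FPKM, and *Hmmr*, a spindle assembly factor, at 2.02, 5.37, 8.55, and 5.98 FPKM. Of these 4 genes, 3 were 3-fold lower in PF than in SAG, 4 than in COR, and 2 than in GP, beside 9.04%, 4.87%, and 6.24% of all genes. *Nusap1* had the largest difference of the 40 from SAG and from GP, at -3.70 and -3.37.

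The midzone and cytokinesis genes were also lowest in PF. *Prc1*, which bundles midzone microtubules, was at 3.43 FPKM in PF and at 19.3, 14.1, and 16.9 FPKM in SAG, COR, and GP. *Kif23* and *Racgap1* encode the partners of the centralspindlin complex. *Kif23* was at 1.82, 8.81, 7.21, and 7.68 FPKM, and *Racgap1* at 13.1, 18.0, 20.4, and 17.0 FPKM. The PF library was apart for *Kif23*, at -1.80 against SAG, and near the others for *Racgap1*, at -0.43. *Ect2*, the RhoA exchange factor that centralspindlin recruits, was at 0.323, 4.84, 6.58, and 4.03 FPKM. *Kif20a*, a midzone motor, was at 7.57, 12.8, 19.2, and 10.4 FPKM. *Anln*, which encodes anillin of the contractile ring, was at 1.90, 4.37, 9.91, and 6.66 FPKM.

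Of the 40 genes, 11 were below 1 FPKM in PF, between 0.104 and 0.593, and the other 29 were between 1.82 and 42.2, with none in between. By that depth estimate the 11 values rested on 6.58 to 113 fragments in PF, with a median of 14.8, where the same genes had 297 to 2087, 210.2 to 1356, and 169.5 to 1357 fragments in SAG, COR, and GP. These estimates take the longest coding transcript as the length and cover no error of the FPKM estimate. Among genes between 3 and 10 FPKM in the lowest of SAG, COR, and GP, 8 of 19 members were below 1 FPKM in PF, compared with 5.41% of all 3219 such genes. Between 1 and 3 FPKM it was 3 of 4 members and 23.0% of 2215 genes. At 10 FPKM or more it was 0 of 17 members and 0.19% of 5273 genes. Values below 1 FPKM in a single library were most frequent in PF over all genes too. Of the genes at 3 FPKM or more in the 3 other libraries, 2.17% were below 1 FPKM in PF, and the shares computed in the same way for SAG, COR, and GP were 0.308%, 0.187%, and 0.287%. The part of the lower PF depth in these values was not tested.

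The differences also moved with base composition. Over all genes with a coding transcript, PF minus the mean of SAG, COR, and GP had a median of -0.35 in the eighth of genes with the lowest GC content and 0.41 in the eighth with the highest. The 40 genes had a median GC content of 46.5%, compared with 50.3% for all such genes. Their own median was -1.71 for the 20 with the lower GC content and -1.30 for the 20 with the higher, and Spearman's rho with GC content over the 40 genes was 0.29, with no p because the points share the same libraries. After a loess correction for GC content, 17 genes were 3-fold lower in PF than in SAG, 17 than in COR, and 11 than in GP, against 9.06%, 4.66%, and 6.25% of all genes under the same correction, and the medians were -1.46, -1.41, and -1.35. Among the 40 genes and these 3 comparisons the sign turned for *Cenpe* alone, to 0.094 against SAG and 0.29 against GP. Transcript length moved less with the PF difference, with Spearman's rho of -0.067 over the 40 genes. The cause of the trend with GC content was not tested.

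**Figure D3:**
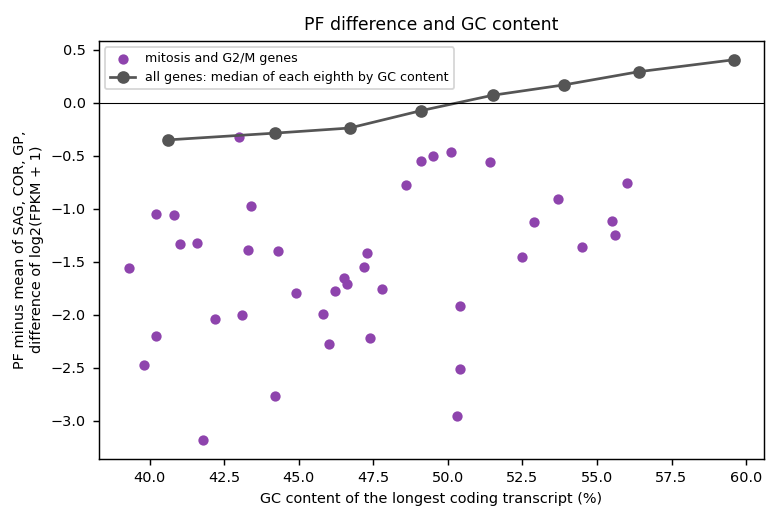
PF minus the mean of SAG, COR, and GP (difference of log2(FPKM + 1)) against the GC content of the longest coding transcript in percent, for the 40 genes (purple) and as the median of each eighth of all genes (grey line). The grey line runs from -0.35 to 0.41, and 39 of the 40 purple points lie below -0.46; *Cenpe*, at -0.32, is the highest.

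The SAG, COR, and GP libraries were much closer to each other. Of the 40 genes, 0 differed by 3-fold in either direction between any of these 3 libraries. For all genes the shares higher and lower were 6.15% and 3.11% for SAG against COR, 4.8% and 3.86% for SAG against GP, and 1.2% and 3.2% for COR against GP. The median difference of the 40 genes was 0.13 for SAG minus COR, 0.21 for SAG minus GP, and 0.19 for COR minus GP. With quantile normalization the SAG minus COR median was -0.014, and relative to *Gapdh* it was -0.10, so that no order of SAG and COR is given. The range over the 3 libraries had a median of 0.59, and the gap from the lowest of them to PF had a median of 1.14. The gap was larger than the range for 30 genes and not for 10. Range and gap were taken for the 40 genes alone, so no share of all genes stands beside this count. Of 13998 genes, PF was lowest for 35.8% and highest for 35.2%. Whether 30 of 40 is more than among all genes was not tested.

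**Figure D4:**
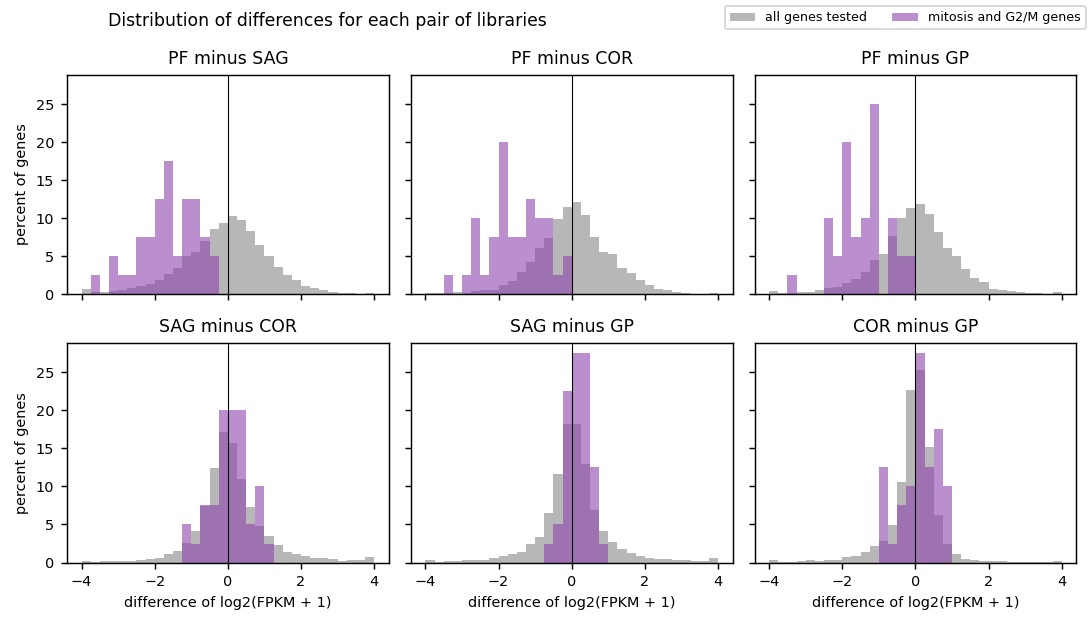
Percent of genes by difference of log2(FPKM + 1) in bins of 0.25 for each of the 6 pairs of libraries, for all genes compared (grey) and the 40 mitosis and G2/M genes (purple); values beyond 4 in either direction are in the outer bins. In the upper row the purple bars lie left of 0 for PF against each other library, and in the lower row, without PF, they lie on both sides of 0.

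At 2-fold, 1 gene was higher and 2 were lower in SAG than in COR, against 12.5% and 7.6% of all genes. *Nusap1* was the higher gene, and *Cenpa* and *Anln* were the lower genes. Between SAG and GP 0 genes passed, against 9.81% and 8.22% of all genes, and between COR and GP 0 passed, against 2.97% and 6.99%. Single genes of COR stood on either side of GP. *Cdk1*, *Aurkb*, *Nusap1*, *Top2a*, and *Ube2c* were lower in COR than in GP, at -0.90, -0.95, -0.91, -0.79, and -0.96. *Cenpa*, *Kif20a*, *Kif2c*, and *Ccnb2* were higher, at 0.83, 0.83, 0.81, and 0.78. Of the 3 libraries, COR was lowest for 12 genes and highest for 16, SAG lowest for 6 and highest for 17, and GP lowest for 22 and highest for 7. SAG was the highest of all 4 libraries for 17 of 40 genes, against 28.4% of all genes, COR for 16, against 19.9%, GP for 7, against 16.4%, and PF for 0, against 35.2%. With PF highest for none of the 40, the shares of SAG, COR, and GP are not directly comparable. Among all genes with PF not highest, SAG was highest for 3975, COR for 2792, and GP for 2300.

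Mitosis needs many further genes, and 130 were taken from lists by role that hold none of the 40. Of the 127 that could be compared between PF and SAG, 30 were 3-fold lower in PF and 0 higher, with 97 lower at any size and a median of -0.86. Between PF and COR 22 of 124 were lower and 1 was higher, with a median of -0.64, and between PF and GP 23 of 125 were lower and 0 higher, with a median of -0.63. The gene higher in PF than in COR was *Stil*, a centriole duplication factor, at 4.76 and 0.729 FPKM, chosen after its values were seen. All genes compared passed at the shares given for the 40 genes, 9.04%, 4.87%, and 6.24%. With a pseudocount of 0.1 the counts lower in PF were 47, 40, and 40, against 15.3%, 9.52%, and 11.3% of all genes. Among the 94 further genes at 1 FPKM or more in all 4 libraries they were 11, 8, and 8, against 3.79%, 2.41%, and 2.98%. PF was the lowest library for 90 of the 127 genes and the highest for 21, against 35.8% and 35.2% of all genes.

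The lists differed. Of 36 kinetochore, centromere, and checkpoint genes compared, 14 were 3-fold lower in PF than in SAG, 10 than in COR, and 12 than in GP. The shares of all genes were 9.04%, 4.87%, and 6.24%, and the medians of the list were -1.30, -0.82, and -0.95. In that list *Ska3*, of a spindle attachment complex, was at 0.226 FPKM in PF and at 5.01, 5.25, and 4.67 FPKM in SAG, COR, and GP. *Mis18a*, which helps to load Cenpa, was at 2.59, 16.9, 14.1, and 17.7 FPKM, and *Ska2* at 11.6, 26.4, 18.2, and 20.7. *Pmf1*, a kinetochore gene, was at 66.2, 43.2, 32.0, and 40.1 FPKM, highest in PF.

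Of the spindle, kinesin, and centrosome genes, 7 of 33 were 3-fold lower in PF than in SAG, beside 9.04% of all genes, with a median of -1.21. Against COR it was 5 of 32, beside 4.87% of all genes, with a median of -0.67. Against GP it was 2 of 33, near the 6.24% of all genes, with a median of -0.66. *Kif22*, a chromosome arm motor, was at 2.30 FPKM in PF and at 16.4, 11.3, and 13.9 FPKM in SAG, COR, and GP, and *Troap* at 0.0268, 5.25, 3.77, and 2.60. *Stmn1*, a microtubule destabilizer, was at 50.7, 163, 83.0, and 80.7 FPKM, while *Haus1*, of the augmin complex, was at 44.0, 33.3, 26.0, and 32.6. Of 15 condensin, cohesin, and separase genes 2 were 3-fold lower in PF than in SAG, close to the 9.04% of all genes, with a median of -0.84. Against COR and GP it was 1 of 15 and 2 of 14, beside 4.87% and 6.24%, with medians of -0.78 and -0.84. *Stag2*, a cohesin subunit, was at 1.90, 9.90, 8.38, and 9.21 FPKM, and *Esco2*, a cohesin acetyltransferase, at 0.0558, 4.37, 1.56, and 4.13. The cohesin ring gene *Smc1a* was at 22.1 to 25.8 FPKM in all libraries, and *Ncaph2*, of condensin II, at 54.9, 39.6, 50.3, and 41.6.

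Of 20 other regulators of CDK1 and mitotic entry, 4 were 3-fold lower in PF than in SAG, beside 9.04% of all genes, with a median of -0.62. Against COR and GP it was 3 of 19 and 4 of 20, beside 4.87% and 6.24%, with medians of -0.475 and -0.516. *Melk*, a kinase of dividing cells, was at 0.305 FPKM in PF and at 6.84, 6.66, and 5.21 FPKM in SAG, COR, and GP, and *Pbk*, a mitotic kinase, at 2.61, 26.9, 9.19, and 20.6. *Cks1b*, the close relative of *Cks2*, was at 176, 127, 116, and 153 FPKM, and *Ensa*, an inhibitor of the phosphatase PP2A, at 80.1, 60.3, 56.9, and 60.8, both highest in PF. Of 8 other cytokinesis genes 2 were 3-fold lower in PF than in SAG, beside 9.04% of all genes, with a median of -0.85. Against COR and against GP it was 2 of 7, beside 4.87% and 6.24%, with medians of -1.01 and -0.49. *Shcbp1*, a midbody protein, was at 0.490, 9.48, 8.56, and 8.96 FPKM, and *Depdc1a* at 0.395, 2.38, 4.23, and 3.34. *Cntrob*, a centriole protein, was at 10.5, 6.54, 3.07, and 3.25 FPKM, and *Rhoa*, the GTPase of the contractile ring, at 155, 151, 245, and 213.

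The genes of the APC/C, whose core subunits are made throughout the cell cycle, had medians near 0, at 0.079 for PF minus SAG, -0.023 for PF minus COR, and 0.25 for PF minus GP. *Anapc5* was at 195 FPKM in PF and at 155, 211, and 153 FPKM in SAG, COR, and GP, *Anapc13* at 200.3, 171, 138, and 128, and *Cdc26* at 118, 60.2, 87.8, and 82.3. The 1 gene of this list counted as 3-fold lower was *Fbxo5*, which encodes the APC/C inhibitor Emi1. It is listed at 0 in PF, which can be a failed estimate, so that no fold is given and its level in PF is unknown. It was at 11.4, 6.76, and 9.56 FPKM in SAG, COR, and GP. Of the DNA replication genes, 4 of 28 were 3-fold lower in PF than in SAG, 3 of 28 than in COR, and 5 of 29 than in GP. The shares of all genes were 9.04%, 4.87%, and 6.24%. The medians of the replication genes were -0.67, -0.28, and -0.72. *Gmnn* (geminin) was at 1.11, 16.4, 10.9, and 14.3 FPKM and *Chaf1a* at 0.155, 4.79, 5.58, and 5.97, while *Pcna* was at 20.2, 55.2, 34.0, and 57.4 and *Mcm6* at 23.6, 40.4, 30.1, and 46.1.

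**Figure D5:**
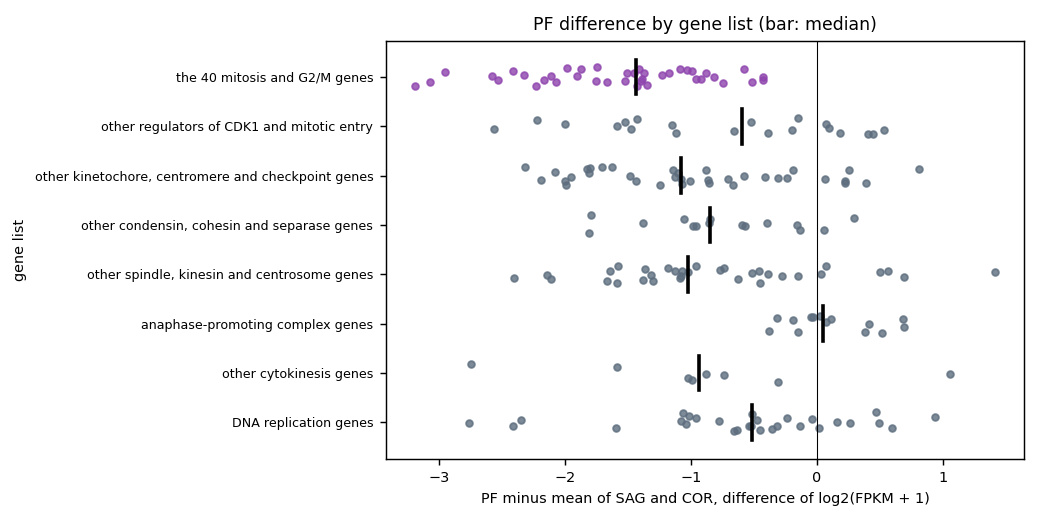
PF minus the mean of SAG and COR (difference of log2(FPKM + 1)) for the 40 mitosis and G2/M genes and for each further list, 1 point per gene with vertical jitter and the median as a bar. The 40 genes all lie left of 0; the median of the APC/C genes lies near 0. *Fbxo5*, listed at 0 in PF, is left out.

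Markers of other cells were also read in each library. Of 9 leukocyte markers, which are found on cells outside the sort, 2 reached 1 FPKM in PF, and *Cd3e* and *Elane* are listed at 0 there. The summed FPKM of that list was 34.7 in PF and 5.75 to 10.9 in the other libraries, mostly *Lyz2*. Of the erythroid markers 3 reached 1 FPKM in PF, with a sum of 19.1 against 2.37 to 2.88, and *Gata1* is listed at 0 in all 4 libraries. Of 5 endothelial markers the sum was 4.30 FPKM in PF, 16.9 in SAG, and 1.10 to 1.18 in COR and GP. The skeletal muscle sum was at most 0.619 FPKM, and that of 6 neuron markers 3.01 to 10.7. The 8 chondrocyte markers summed to 138 FPKM in PF and 108 in COR, and to 3759 in SAG and 3157 in GP. Neural progenitor markers summed to 17.0, 118, 12.9, and 53.8 FPKM and choroid plexus markers to 483, 5346, 147, and 10.8 FPKM in PF, SAG, COR, and GP. The 5 osteoclast markers, some of which skeletal cells also make, summed to 536 to 758 FPKM. The part of such cells in the PF difference was not tested.

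Many genes of late cell cycle transcription share the cell cycle homology region (CHR) and CCAAT boxes, which are bound by the DREAM and MuvB complexes and by NF-Y. RefSeq promoters of 300 bases, from 250 before to 50 after the annotated start (GRCm38.p6, a later build than the mm9 of the expression values), held entries for 34 of the 40 genes. The CHR letters searched were TTTGAA and TTCGAA, and the NF-Y box was CCAAT, on both strands; the end base of one can be the first of the other, as in CCAAT followed by TTGAA. A CHR match was found in 26 of the 34 promoters, or 76.5%, compared with 21.7% of 27025 genes with an entry and 16.3% of the 10379 of them at 1 FPKM or more. A CCAAT match was found in 28, or 82.4%, compared with 41.1% and 42.7%. Both were found in 24, or 70.6%, compared with 9.7% and 8.0%, and 2 or more CCAAT matches in 19, or 55.9%, compared with 13.3% of all genes. A match is a description of the letters. Within the 34 genes the median of PF minus the mean of the other libraries was -1.39 for the 26 with a match and -2.07 for the 8 without. It was -1.40 for the 28 genes with a CCAAT match and -2.24 for the 6 without.

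The 250 bases before the start are shown for 4 genes with both kinds of match in that stretch and a single promoter entry, the pair farthest below the other libraries in PF and the pair nearest to them. Capitals mark the CHR and CCAAT letters on either strand. *Bub1b* (chr2:118597961-118598210, plus strand) and *Ncapg* (chr5:45669675-45669924, plus strand) were at -2.51 and -2.47 in PF against the mean of the other libraries, and *Ncapd2* (chr6:125191587-125191836, minus strand) and *Ccnb2* (chr9:70421555-70421804, minus strand) at -0.90 and -0.55, all on GRCm38.p6 and written 5′ to 3′ on the strand of the gene.
Bub1b: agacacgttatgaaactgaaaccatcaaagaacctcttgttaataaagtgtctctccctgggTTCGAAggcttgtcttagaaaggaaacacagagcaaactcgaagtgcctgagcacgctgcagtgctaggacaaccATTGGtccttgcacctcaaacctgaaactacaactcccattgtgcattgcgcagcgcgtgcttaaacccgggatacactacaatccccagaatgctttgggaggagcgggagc
Ncapg: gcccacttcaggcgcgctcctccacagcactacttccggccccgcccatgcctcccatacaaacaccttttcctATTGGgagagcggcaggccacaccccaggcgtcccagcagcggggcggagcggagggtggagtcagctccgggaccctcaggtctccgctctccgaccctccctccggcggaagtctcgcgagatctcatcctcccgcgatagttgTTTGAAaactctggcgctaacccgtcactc
Ncapd2: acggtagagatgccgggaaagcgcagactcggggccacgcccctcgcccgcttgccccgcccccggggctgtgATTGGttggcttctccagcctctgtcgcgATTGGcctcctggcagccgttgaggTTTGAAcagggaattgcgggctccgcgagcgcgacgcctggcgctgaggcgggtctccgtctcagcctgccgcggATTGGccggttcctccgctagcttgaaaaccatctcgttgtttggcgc
Ccnb2: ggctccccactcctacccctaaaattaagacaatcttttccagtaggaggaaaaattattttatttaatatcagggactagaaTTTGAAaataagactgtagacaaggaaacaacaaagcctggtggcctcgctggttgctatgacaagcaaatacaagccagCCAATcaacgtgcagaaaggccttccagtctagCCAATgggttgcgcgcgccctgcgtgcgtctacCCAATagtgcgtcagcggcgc

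In the printed stretch the CHR letters began 188 bases before the start in *Bub1b*, 30 in *Ncapg*, 123 in *Ncapd2*, and 167 in *Ccnb2*. A further CHR match, TTTGAA, lay past the start and so outside the printed bases in *Ccnb2*, at 4 bases, and in *Bub1b*, at 40. *Bub1b* and *Ncapg* had 1 CCAAT match each in this stretch, and *Ncapd2* and *Ccnb2* had 3 each. In *Ccnb2* the CCAAT boxes began 87, 54, and 21 bases before the start, all in the same direction. Genes far from and near to the other libraries in PF are thus both shown with these letters, as the choice required.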

How the data were processed

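CD51+;CD200+ cells were double sorted from suture complexes with their dura mater and periosteum and from the tibial growth plate, and cDNA was made with a low-input kit. The authors mapped paired-end reads to mm9 with STAR 2.5.1b and ran Cuffdiff of Cufflinks 2.2.1 on an iGenomes annotation, per the submitters' processing notes and methods. The values deposited per gene symbol are FPKM. How Cuffdiff scaled the libraries is not given in the sources used here, and the single-cell data were not analysed here.

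Differences of log2(FPKM + 1) were taken for the 6 pairs of libraries, with a floor of 1 FPKM, and counted at 3-fold, the fold the study used, beside all genes. The members and lists were chosen with earlier results of these data known. All members are named; of each further list, the 2 highest and the 2 with the largest difference between PF and the mean of SAG and COR. Alternatives were a pseudocount of 0.1, median-ratio scaling, quantile normalization, values relative to *Gapdh*, a loess fit on GC content with span 0.3 over genes at 5 FPKM or more, other floors, and 2-fold. A correction for GC content and length and the omission of genes listed at 0 were added after seeing the data. Transcripts and positions are from GENCODE vM1 (mm9), which covered 80.8% of the symbols, and promoters from RefSeq. *Ccdc99* and *Snorc*, in the lists, had no row by these symbols. Python 3.11.15, numpy 2.4.6, pandas 2.3.3, and statsmodels 0.14.6 were used. On simulated data for PF against SAG, 197 of 200 changed genes were recovered and 0 unchanged genes were counted. Every simulated library was built from the SAG values with small random noise, and large changes were put in genes at 5 FPKM or more. The calls had no gap in depth and no trend with GC content. The simulation therefore checks the counting alone and gives no error rate for these libraries.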

Additional observations from a re-analysis of the deposited data

How the results depend on the processing

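No paired analysis was possible because only 1 library was made per tissue, and no replicate could be left out. PF was the lowest library for all 40 genes with median-ratio scaling and with quantile normalization. It was also lowest with a pseudocount of 0.1, but a pseudocount cannot change the order of the libraries within a gene. After the GC correction, and after the correction for GC content and length, GP was lowest for 1 gene. Relative to *Gapdh*, which was itself lowest in PF, GP was lowest for 4, COR for 1, and SAG was highest for 11, and 11 and 10 genes were 3-fold lower in PF than in SAG and GP. After either correction 11 genes were 3-fold lower in PF than in GP, in place of 17, against 6.25% and 6.27% of all genes. With 1 FPKM or more in all 4 libraries, which removes the 11 genes low in PF, 10, 11, and 9 of 29 genes were 3-fold lower than in SAG, COR, and GP. At 2-fold it was 32 of 40 against GP, and for SAG against COR 1 gene higher and 2 lower. With 5 FPKM or more in at least 1 library of the pair, 15 of 32, 15 of 32, and 12 of 30 genes were 3-fold lower. The shares of all genes under that floor were 8.72%, 4.7%, and 6.06%. Of the 40 genes, 17 reached 5 FPKM in PF. None of the 40 genes is listed at 0, so their counts could not change when genes listed at 0 were left out. Without genes listed at 0, 29 of 126, 21 of 123, and 22 of 124 further mitosis genes were 3-fold lower in PF than in SAG, COR, and GP. The shares of all genes were then 8.15%, 4.52%, and 5.72%. The SAG minus COR median was -0.014 with quantile normalization and -0.10 relative to *Gapdh*. For the further mitosis genes the SAG minus COR median was -0.029 relative to *Gapdh*, and the COR minus GP median, -0.047 as reported, was 0.001 with quantile normalization, 0.14 relative to *Gapdh*, and 0.014 after the GC correction. Some settings compare fewer genes, and the cause of the shifts was not tested. FPKM carries no counts, and the shallow PF library limits the values under 1 FPKM most.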
